A study of Homo sapiens with 6 samples.

Results

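OGFR, its relative OGFRL1, the nociceptin receptor gene OPRL1 and the opioid peptide precursor genes PENK, PDYN and POMC were followed in cardiomyocytes after knockdown of CIRBP, a cold-inducible RNA-binding protein. These 6 genes were taken by name from the 58884 genes listed. RNA-seq was performed on human immortalized ventricular cardiomyocytes that received either negative control siRNA (NC) or siRNA against CIRBP (SiCIRBP), with 3 libraries per group, numbered NC_1 to NC_3 and SiCIRBP_1 to SiCIRBP_3. The library labels give the line as T0519, whereas the text of the study gives AC16 for the sequencing, and both are lines of that kind. The study compared 4 of the 6 libraries, NC_2 and NC_3 with SiCIRBP_1 and SiCIRBP_3. It left out NC_1 and SiCIRBP_2 because correlation and principal component analysis of these data set them apart most. The 4 libraries were thus chosen on the expression values that are tested, which can make their p-values too small. These 4 are given first here, with all 6 beside them. The study singled out OGFR because it changed both in this comparison of RNA and in its proteomics. The OGFR values below come from the same libraries, so they are not an independent test of that choice. Neither the hours after transfection nor separate cultures are given in the labels, so the p-values measure the spread between these libraries, which may be technical.

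OGFR, the opioid growth factor receptor, binds Met-enkephalin and has no sequence kinship with the G protein-coupled opioid receptors. It sits at the nuclear envelope, enters the nucleus by importin-dependent transport and, with its ligand, is known for slowing the cell cycle through the CDK inhibitors p16 and p21. Met-enkephalin is cut from the precursor encoded by PENK, dynorphins come from PDYN, and beta-endorphin, ACTH and melanocortins come from POMC. OPRL1 is a G protein-coupled receptor whose ligand, nociceptin, is cut from the product of PNOC. OGFRL1 resembles OGFR in part of its protein, and its role is less well described.

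Libraries held between 25726259 and 29919566 estimated counts. CIRBP, the targeted gene, was at 86.4, 85.8 and 90.9 CPM (counts scaled to library size by TMM) in NC_1 to NC_3 and at 54.8, 24.3 and 46.3 CPM in SiCIRBP_1 to SiCIRBP_3, so that every library went with its label. Its log2 difference over the 4 libraries was -0.81 (adjusted p = 0.00828 in edgeR), short of a 2-fold change. All 6 libraries gave -1.07, with an adjusted p of 0.103 in edgeR and 0.00328 in DESeq2. SiCIRBP_2 stood apart. Over 24 interferon-stimulated genes, the summed level was between 939.5 and 969 TPM (a level per transcript length) in the NC libraries, and it was 434.6, 9037 and 1820 TPM in SiCIRBP_1, SiCIRBP_2 and SiCIRBP_3, with ISG15 the highest gene on average. Among the cardiomyocyte markers, MYH6, MYL2 and RYR2 were at 0 in every library and TNNT2 had 1 count in a single library. ACTN2 was the highest on average, at 7.86 to 15.9 TPM, followed by NKX2-5 at 3.39 to 9.69 TPM, and the 12 markers summed to between 15.3 and 26.7 TPM. NKX2-5 was called lower over the 4 libraries (log2 difference -1.24, adjusted p = 0.016 in edgeR). In SiCIRBP_2 it lay above every control in CPM, at 9.49, but in TPM, at 8.84, it lay below NC_2 at 9.69. All 6 libraries gave NKX2-5 -0.36 (adjusted p = 0.639 in edgeR). VWF, an endothelial marker with between 1 and 16 counts, was called higher over the 4 libraries (2.56, adjusted p = 0.0369 in edgeR). Over all 6 it had 2.00 (adjusted p = 0.108). The other tested endothelial markers, TEK and KDR, had -0.47 (adjusted p = 0.23) and 0.16 (adjusted p = 0.468) over the 4 libraries. The 8 fibroblast markers summed to between 557.9 and 1651 TPM, with COL1A1 the highest. The 5 endothelial markers summed to between 9.1 and 15.7 TPM, with TEK the highest, and the 5 leukocyte markers to between 0.94 and 3.25 TPM, with CD14 the highest. Of the 12 cardiomyocyte markers, 3 passed the filter on low counts (ACTN2, NKX2-5 and TNNI3). ACTN2 had -0.42 (adjusted p = 0.0981 in edgeR, 4 libraries). TNNI3, with between 1 and 30 counts, went the other way, with 2.44 (adjusted p = 0.0719).

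The OGFR promoter is printed because OGFR was the member that rose, and because interferon-stimulated genes differed so widely between the knockdown libraries. OGFR lies on chr20:62804835-62814000, plus strand (GENCODE 29, GRCh38, ENSG00000060491), with 4 annotated transcripts. Its promoter window in RefSeq (GRCh38.p14, chr20:62804585-62804884, plus strand) covers 250 bases before the start and 50 after it, and has 77.7% GC and 43 CpG dinucleotides. Capitals mark a match to the core of the interferon-stimulated response element, searched on both strands as GAAA, 2 bases of any kind, GAAA.
OGFR promoter: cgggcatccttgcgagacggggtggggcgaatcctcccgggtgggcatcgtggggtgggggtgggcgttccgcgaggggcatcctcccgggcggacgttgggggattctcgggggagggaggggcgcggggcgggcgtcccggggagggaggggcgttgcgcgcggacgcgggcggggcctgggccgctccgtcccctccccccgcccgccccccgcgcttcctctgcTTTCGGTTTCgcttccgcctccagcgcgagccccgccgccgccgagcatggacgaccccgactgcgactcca

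The match lies 22 bases before the RefSeq start and reads in the antisense direction. It falls upstream of the annotated gene, within OGFR-AS1 on the minus strand. The core occurred in 3.57% of 35116 promoter windows of the same length. Counted by gene, it occurred in 4.38% of 27305 genes and in 12 of the 16 interferon-stimulated genes that had a window. The exact letters of OGFR, GAAACCGAAA, were found in 38 windows, which is 0.108%. Counted by gene, 0.128% of all genes and 4 of the 16 interferon-stimulated genes with a window held them. The letters were taken from OGFR, so the genes shown share them by choice, and the other windows that hold them are not shown. The stretches are set below one another, with the match in capitals and every stretch read from the strand of its gene. MX1 and ISG15 hold the match in the other direction from OGFR.
OGFR, chr20:62804805-62804830: tcctctgcTTTCGGTTTCgcttccgc
MX1, chr21:41420561-41420586: gcagaaatGAAACCGAAActgaattg
IFIT1, chr10:89392512-89392537: ctttccccTTTCGGTTTCcctaggtt
IFI27, chr14:94110620-94110645: gtctgcagTTTCGGTTTCctggaaaa
ISG15, chr1:1013382-1013407: gggaaaggGAAACCGAAActgaagcc

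Of the members, 5 of 6 had a RefSeq promoter window, PENK being the other. OGFRL1, OPRL1 and POMC had no such core in theirs, and PDYN had it in 1 of its 4 windows. The GC box GGGCGG, present on either strand in 44.95% of all windows, occurred 5 times in the OGFR window, 4 times in that of OGFRL1 and 5 times in the first of the 3 windows of OPRL1. These matches describe the letters of each window and do not show that a factor binds there.

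OGFR rose in all 3 knockdown libraries, whereas OGFRL1 and OPRL1 were lower. Met-enkephalin's precursor gene PENK, as well as PDYN, was at 0 throughout, and POMC was almost so. After the filter on low counts 3 members remained (OGFR, OGFRL1 and OPRL1), and the 3 precursor genes did not pass it. Over the 4 libraries, 1 member was called higher (OGFR) and 1 lower (OPRL1), where a call required an adjusted p below 0.05 in edgeR and at least a 2-fold change. Among all 15421 genes tested, 1.82% were called higher and 1.8% lower.

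OGFR was at 65.5, 63.9 and 65.3 CPM in NC_1, NC_2 and NC_3, and at 141.9, 310.9 and 180.2 CPM in SiCIRBP_1, SiCIRBP_2 and SiCIRBP_3. Every knockdown library lay far above every control library, and the controls were nearly identical while the knockdown libraries were widely spread. In bulk RNA, more cells with a transcript and more of it per cell cannot be told apart. The group means were 64.9 ± 0.855 and 211 ± 88.6 CPM (SD, n = 3). Relative to the NC mean, the 3 knockdown libraries were at 2.19, 4.79 and 2.78, in the same order. A gene that kept its order between groups in this way was common, since 16.2% of 15217 genes had all 3 knockdown libraries above all 3 controls.

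Over the 4 libraries of the study, OGFR went from 64.6 ± 0.956 to 161.1 ± 27.1 CPM (SD, n = 2), a log2 difference of 1.32 (SE 0.12, 95% interval 1.02 to 1.62) with an adjusted p of 0.00465 in edgeR, which is 2.49-fold. With all 6 libraries the log2 difference was larger, at 1.70 (95% interval 1.08 to 2.32), but its adjusted p in edgeR was 0.0869. No gene was called in that fit, in which 3603 genes (23.7%) had an unadjusted p below 0.05, while DESeq2 called 0.593% of genes higher and 0.564% lower. DESeq2 over the 6 libraries gave OGFR a log2 difference of 1.70 with an adjusted p of 2.41e-07. Without SiCIRBP_2, the 5 remaining libraries gave 1.31 with an adjusted p of 0.0107 in edgeR, which called 0.702% of genes higher there. In the filtered edgeR fit of 6 libraries OGFR passed the threshold without SiCIRBP_2 and not with it, although OGFR was highest there. An exact permutation test of log2(CPM + 1) between the 3 and 3 libraries gave p = 0.1 (two-sided), the smallest that this design allows.

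Among the knockdown libraries, CIRBP was lowest in SiCIRBP_2, at 24.3 CPM, where OGFR was highest, and it was highest of the 3 in SiCIRBP_1, at 54.8 CPM, where OGFR was lowest. The interferon-stimulated genes had the same order, with 1 of 24 genes above the NC mean in SiCIRBP_1 and 24 of 24 in both SiCIRBP_2 and SiCIRBP_3. In SiCIRBP_1 the median interferon-stimulated gene lay 0.82 below the NC mean on the log2 scale, and OGFR was 2.19 times its NC mean. None of the 24 interferon-stimulated genes was called over the 4 libraries. No correlation is given over 3 knockdown libraries, and the part of CIRBP depth or of interferon-stimulated genes in the spread of OGFR was not tested.

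**Figure D1:**
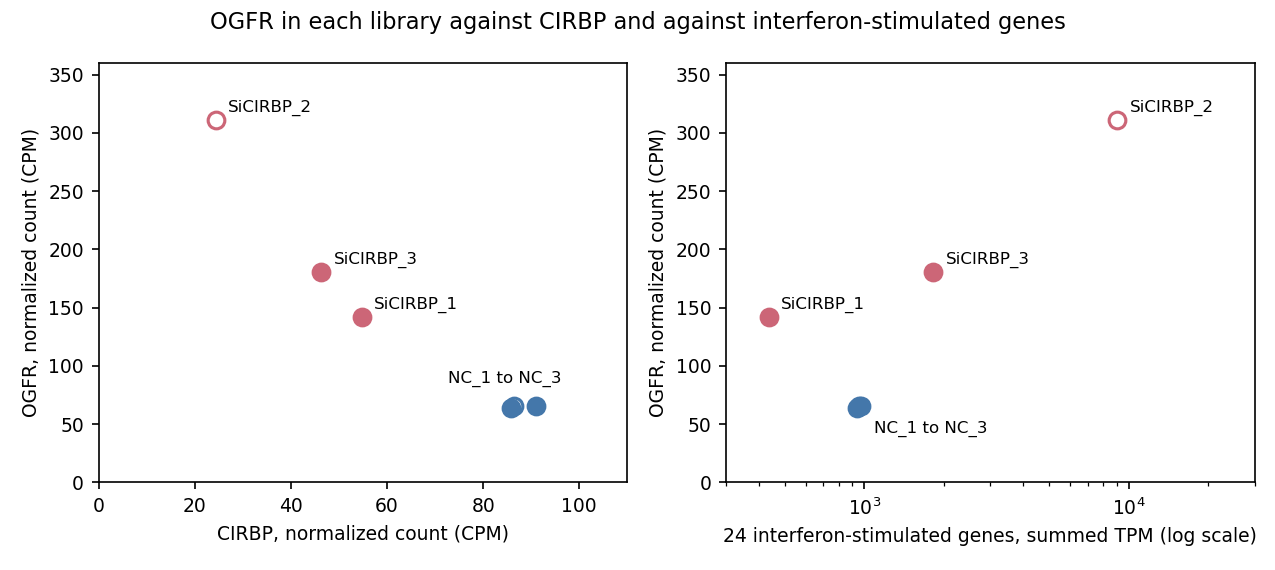
OGFR in CPM against CIRBP in CPM and against the summed TPM of 24 interferon-stimulated genes (log axis), 1 point per library. NC is in blue and SiCIRBP in red, with open circles for NC_1 and SiCIRBP_2. The 3 NC points lie close together, between 63.9 and 65.5 CPM of OGFR, and SiCIRBP_2 combines the lowest CIRBP with the highest OGFR and the highest interferon-stimulated sum.

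The rise of OGFR was seen in TPM as well, at 48.3, 47.7 and 49.8 TPM in the controls and 105.9, 212.9 and 140.0 TPM after knockdown. Per length, OGFR moved from the 79.5th to the 93.5th percentile of 15217 genes. The count divided by the TPM gives, up to a factor per library that was set on 281 genes with a single transcript, the transcript length that the authors' quantification assigned to a gene. For OGFR this length was 1917, 1892 and 1919 bases in the controls and 1817, 1763 and 1750 bases after knockdown. The 3 knockdown values were below all the controls, a mean difference of -132.7 bases, or -6.95% (exact permutation test, p = 0.1, the smallest possible). Of 11674 genes, 7.31% had shorter lengths without overlap in this way, 10.4% had longer ones, and 10.4% had a smaller ratio of lengths than OGFR. The share of each OGFR transcript was not analysed here.

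Of 4599 words of 31 bases in its transcripts, 0.413% occurred in other genes. OGFR-AS1, which overlaps it over 753 bases on the other strand, was at 0 in every library. Its nearest protein-coding neighbours were MRGBP, 3097 bases upstream, with a log2 difference of -0.09 (adjusted p = 0.574 in edgeR, 4 libraries), and COL9A3, 2244 bases downstream, with -0.04 (adjusted p = 0.914). TCFL5, whose nearer end overlaps the far end of COL9A3 and lies 27115 bases from OGFR, had 0.64 (adjusted p = 0.03 in edgeR) over the 4 libraries. Over all 6 it had 0.34 (adjusted p = 0.381). The 95% intervals of MRGBP, -0.35 to 0.16, and COL9A3, -0.62 to 0.54, lay below that of OGFR.

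The genes whose profile over the 6 libraries was most like that of OGFR were EMC6, TMEM265, HOXB5, OSR1 and PPIF. Likeness was the root mean square difference between profiles of log2(CPM + 1), each centred on its own mean, over 15216 genes, and it ranged from 0.2 for EMC6 to 0.261 for PPIF. EMC6, a subunit of the membrane protein insertase of the endoplasmic reticulum, was at 20.1, 18.6 and 19.3 CPM in the controls and at 40.6, 73.7 and 38.7 CPM after knockdown. PPIF, the cyclophilin of the mitochondrial permeability pore, went from 107.8, 84.4 and 83.8 CPM to 146.7, 317.8 and 177.5 CPM. All 5 were highest in SiCIRBP_2, as OGFR was, but they were picked for likeness to OGFR over these libraries. TMEM265 was near the floor, at 0.245, 0 and 0 CPM in the controls and 2.53, 4.045 and 2.24 CPM after knockdown. These profiles share their libraries, and the likeness is a description.

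OGFRL1, on chr6:71288803-71308950, plus strand (ENSG00000119900), was expressed far below OGFR. It was at 12.02, 14.1 and 13.5 CPM in NC_1 to NC_3 and at 7.23, 7.35 and 9.37 CPM in SiCIRBP_1 to SiCIRBP_3. All 3 knockdown libraries lay below all 3 controls, which 16.6% of genes did. The group means were 13.2 ± 1.07 and 7.98 ± 1.20 CPM (SD, n = 3). Over the 4 libraries the log2 difference was -0.73 (SE 0.17, 95% interval -1.13 to -0.33) with an adjusted p of 0.0298 in edgeR, short of the 2-fold threshold. Of all genes tested, 9.76% were lower at an adjusted p below 0.05 and any size. Leaving out 1 of the 4 libraries gave -0.70 without NC_2, -0.77 without NC_3, -0.56 without SiCIRBP_1 and -0.94 without SiCIRBP_3. Each of these fits kept 1 library in a group and could not measure the spread of that group, so only the differences are given. All 6 libraries gave -0.73 with an adjusted p of 0.101 in edgeR and -0.72 with 0.0103 in DESeq2.

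On the TPM scale, which allows the pair to be compared, OGFR exceeded OGFRL1 24.9, 20.7 and 20.9 times in the controls and 92.9, 208.7 and 78.2 times after knockdown. The ratio was thus higher in every knockdown library than in any control. OGFRL1 stood at percentile 23.97 per length in the controls and at percentile 18.3 after knockdown. Of the words of 31 bases in OGFRL1 transcripts, 11.95% also occurred in other genes, 9.54% in the overlapping AL589935.1, which had between 0 and 5 counts. Its assigned length was 7112 bases in SiCIRBP_3 and between 8298 and 8740 bases in the other libraries, and the groups overlapped (exact permutation test, p = 0.6).

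OPRL1 was scarcely expressed, and lower after knockdown. It lies on chr20:64080173-64100643, plus strand (ENSG00000125510). Its counts were 71, 88 and 169 in NC_1 to NC_3 and 52, 21 and 22 in SiCIRBP_1 to SiCIRBP_3, or 2.49, 3.42 and 5.54 CPM against 1.78, 0.817 and 0.784 CPM. The groups did not overlap, but NC_3 was more than 2-fold above NC_1, and SiCIRBP_1 had more counts than both other knockdown libraries together. For the closest pair, NC_1 and SiCIRBP_1, the exact Poisson intervals of the counts, 55.5 to 89.6 and 38.8 to 68.2, overlapped. Such intervals cover counting error only.

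The means of OPRL1 were 3.82 ± 1.57 and 1.13 ± 0.566 CPM (SD, n = 3). Over the 4 libraries the log2 difference was -1.80 (SE 0.43, 95% interval -2.82 to -0.78), with an adjusted p of 0.0324 in edgeR. Removal of single control libraries ended the call, with -1.41 (adjusted p = 0.232 in edgeR) without NC_3 and -2.11 (adjusted p = 0.0723) without NC_2. With all 6 libraries, edgeR gave -1.75 with an adjusted p of 0.103 and DESeq2 gave -1.76 with an adjusted p of 0.00417. Per length, OPRL1 moved from the 20.5th to the 6.99th percentile of genes.

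None of the 31-base words of OPRL1 occurred in another gene. RGS19, a regulator of G protein signalling, begins 185 bases away on the opposite strand and had a log2 difference of 0.09 (adjusted p = 0.694 in edgeR). LKAAEAR1, inside OPRL1 on the opposite strand, had between 1 and 8 counts. Strand-specific counting is not stated in the sources used here, and reads of the overlapping stretch cannot be told apart by strand.

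The genes for opioid peptide precursors were not detectable at this depth. PENK (chr8:56436674-56446734, minus strand) and PDYN (chr20:1978757-1994285, minus strand) had 0 counts in each of the 6 libraries, as did PNOC. POMC (chr2:25160853-25168903, minus strand) had 1 count, in NC_3, with an exact Poisson interval of 0.0253 to 5.57 counts. As a limit on one side, a count of 0 allows up to 3 counts, which is between 0.1003 and 0.117 CPM per library. These genes cannot be compared between groups.

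The other opioid receptors were near the limit of detection. OPRM1, the mu receptor, had between 0 and 3.88 estimated counts per library, and OPRD1, the delta receptor, between 2 and 13.1. OPRK1, the kappa receptor, had between 9 and 16 counts, and its log2 difference over the 4 libraries was -0.39 (95% interval -1.55 to 0.78, adjusted p = 0.606 in edgeR). OGFR was thus the single receptor of the opioid group with a level above 10 CPM in these cells.

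The surrounding pathway was read from 8 lists that together held 52 genes other than the members, of which 39 were tested. Of these, 1 was called higher and 0 lower over the 4 libraries. A fit that left out 1 of the 4 kept 1 library in a group and could not measure the spread of that group. Without NC_2 or without NC_3 no pathway gene was called higher, whereas 3 were without SiCIRBP_1 and 2 without SiCIRBP_3. In the same 4 fits, 0.297%, 0.151%, 3.88% and 2.36% of all genes were called higher. At an adjusted p below 0.05 and any size, 10 were higher and 3 lower in edgeR, or 25.6% and 7.69%, against 9.62% and 9.76% of all genes. Their median log2 difference was 0.10, and that of all tested genes was -0.002. With all 6 libraries edgeR had 0 of the 39 genes past an adjusted p of 0.05, as it had 0 of all genes, and DESeq2 had 3 higher and 1 lower of 48, where it had 2.27% and 2.52% of all genes.

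Among genes that make or break opioid peptides, both directions occurred. CTSL, a protease that processes proenkephalin, was at 712, 914 and 1043 CPM in the controls and at 764, 688 and 765 CPM after knockdown, with a log2 difference of -0.36 (adjusted p = 0.0373 in edgeR, 4 libraries) and overlapping groups. PAM, which amidates peptides, had -0.23 (adjusted p = 0.138). PCSK2, a proprotein convertase, was at 0, and PCSK1 had between 1 and 14 counts.

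MME, or neprilysin, which cleaves enkephalins, was at 30.98, 35.4 and 37.6 CPM in the controls and at 20.9, 18.3 and 24.01 CPM after knockdown, without overlap. Its log2 difference was -0.70 (adjusted p = 0.014 in edgeR). ECE1, an endothelin-converting enzyme, had 0.60 (adjusted p = 0.0286), but lay at 474.7 CPM in SiCIRBP_2, below all controls, and all 6 libraries gave 0.28 (adjusted p = 0.553). DPP4, a dipeptidyl peptidase, had 1.19 (adjusted p = 0.0742) from between 28 and 112 counts per library. DESeq2 over all 6 libraries called it, with 1.23 (adjusted p = 0.0279). NPEPPS, a puromycin-sensitive aminopeptidase, had 0.02 (adjusted p = 0.883).

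All 8 genes for nuclear import were tested, and 3 of them were higher at an adjusted p below 0.05 and none lower. Of all tested genes, 9.62% were higher and 9.76% lower at that threshold. RAN, the GTPase that drives nuclear transport, had a log2 difference of 0.43 (adjusted p = 0.022 in edgeR) over the 4 libraries. KPNA2, an importin alpha, had 0.45 (adjusted p = 0.0185). NUTF2, which imports RAN, had 0.41 (adjusted p = 0.0207). The KPNA2 level in NC_1, 486 CPM, was nevertheless above that of SiCIRBP_1, 473 CPM. With all 6 libraries none of these 3 passed in edgeR, with adjusted p of 0.142 for RAN, 0.255 for KPNA2 and 0.122 for NUTF2. DESeq2 over the 6 gave 0.0575, 0.265 and 0.0555.

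The list of 9 cell cycle genes held p16 and p21, the inhibitors through which OGFR is known to act, and other cell cycle genes. At an adjusted p below 0.05, 9.62% of all tested genes were higher and 9.76% lower. Of the 9 listed genes, 3 were higher and 0 lower. These were the cyclins CCND1 (log2 difference 0.83, adjusted p = 0.0146 in edgeR) and CCNE1 (0.68, adjusted p = 0.0292) and the kinase CDK6 (0.59, adjusted p = 0.0163). For both cyclins SiCIRBP_2 lay within the control range, and all 6 libraries gave CCND1 0.53 (adjusted p = 0.182 in edgeR) and CCNE1 0.38 (adjusted p = 0.338). CDKN2A, the gene of p16, had 0.02 (95% interval -0.23 to 0.27, adjusted p = 0.901 in edgeR), and lay at 199, 195 and 186 CPM in the controls and 176, 409 and 211 CPM after knockdown. CDKN1A, the gene of p21, was at 31.8, 41.2 and 46.9 CPM in the controls and at 34.8, 111.1 and 34.2 CPM after knockdown, with -0.35 (adjusted p = 0.0637 in edgeR) over the 4 libraries. SiCIRBP_2 stood far above the other 5 libraries for both inhibitors, whereas the other knockdown libraries lay near or within the range of the controls. CDK4 had 0.26 (adjusted p = 0.122).

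For coupling of opioid receptors to G proteins, 2 of 10 tested genes were higher and 1 lower at an adjusted p below 0.05, against 9.62% and 9.76% of all genes. RGS4, which shortens G protein signals, had 0.68 (adjusted p = 0.0117 in edgeR), GNAI2, an inhibitory G protein subunit, had 0.32 (adjusted p = 0.0312), and GRK2, a receptor kinase, had -0.34 (adjusted p = 0.0284). In SiCIRBP_2, RGS4 lay within the control range at 229 CPM, and GNAI2, at 153 CPM, lay below every control (332 to 360.3 CPM). All 6 libraries gave GNAI2 -0.05 (adjusted p = 0.939 in edgeR), so its direction turned, and RGS4 0.42 (adjusted p = 0.216).

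MC1R, a receptor for melanocortins derived from POMC, was the single gene of the pathway lists called over the 4 libraries besides the members. Its log2 difference was 1.12 (95% interval 0.79 to 1.46, adjusted p = 0.00726 in edgeR). It was at 16.5, 11.5 and 14.2 CPM in the controls and at 28.97, 18.01 and 26.97 CPM after knockdown, without overlap. All 6 libraries gave 0.81, short of 2-fold, with an adjusted p of 0.111 in edgeR and 0.0159 in DESeq2. This value is uncertain, since MC1R overlaps TCF25 over 1509 bases and readthrough transcripts on the same strand, and lies 415 bases before TUBB3, which was at 151, 136 and 133 CPM in the controls and 275, 379 and 271 CPM after knockdown.

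**Figure D2:**
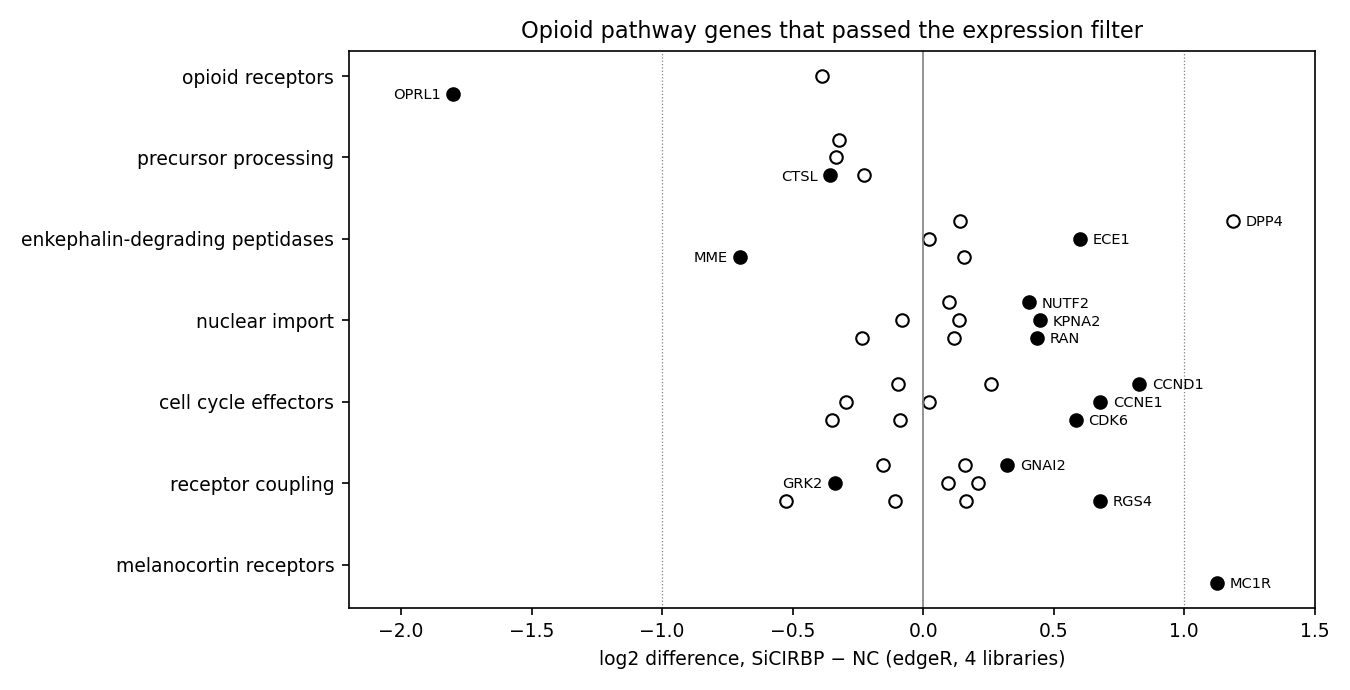
Log2 difference over the 4 libraries for the tested genes of the opioid pathway lists, in edgeR, grouped by list. Filled points have an adjusted p below 0.05. OPRL1, at -1.80, MC1R, at 1.12, and DPP4, at 1.19 but with an adjusted p of 0.0742 in edgeR, lie past the dotted lines of a 2-fold change, and all other plotted genes lie within them.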

How the data were processed

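RNA-seq of 3 NC and 3 SiCIRBP libraries was analysed as deposited. The authors deposited an estimated count per gene and library, not normalized and not always whole, and a TPM value scaled by transcript length and library. Their processing notes name fastp, HISAT, RSEM and hg38, with versions, annotation release and strand not given in the sources used here. Columns of the authors' own fold changes, p-values and pooled TPM were not used.

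Estimated counts were rounded and tested in edgeR 4.0.16 (R 4.3.3) with TMM, filterByExpr and the quasi-likelihood test, with Benjamini-Hochberg adjustment over all genes tested. The main fit held the 4 libraries of the study. DESeq2 1.42.0, other filters and scaling, and left-out libraries were alternatives. Exact permutation tests were two-sided (scipy 1.17.1). Of 58884 identifiers, 58611 matched GENCODE 29. Intervals of counts are exact Poisson at 95%.

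The members and lists were chosen with earlier results of these data known. Named genes were the members, called genes and the 2 highest in TPM of each pathway list, the highest gene of marker lists, neighbours of OGFR and OPRL1 and the 5 profiles nearest to OGFR. MYH6, MYL2, RYR2, TNNT2, TNNI3, NKX2-5, VWF, KDR, OPRM1, OPRD1, PCSK1, PCSK2, MME, DPP4, NUTF2, CCND1, CCNE1, CDK6, CDKN1A, GRK2, TCFL5 and the genes around MC1R were named after their values were seen. On simulated counts with 200 genes changed by a log2 of 1.5, 90.5% were recovered with the 4 libraries (15236 genes) and 94% with 6 (15139 genes). The simulation gave every gene the same dispersion and held no library that stood apart. These shares therefore check the procedure and do not measure recovery in the real libraries.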

Additional observations from a re-analysis of the deposited data

How the results depend on the processing

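The direction held for OGFR, OGFRL1 and OPRL1 under all 18 alternatives of each. OGFR lost its call in edgeR with all 6 libraries (1.70) with the replicate block (1.62) and in 5 of the 6 fits that left 1 library out of 6. Leaving out single libraries, from the 4 or the 6, gave OGFR between 1.13 and 1.93. OPRL1 lost its call with all 6 libraries (-1.75) and with the block (-1.76), and ranged from -2.52 to -1.34 with single libraries left out. Under both of those fits, 0 members were called higher and 0 lower, 0 pathway genes higher and 0 lower, and leaving out libraries gave 0 to 1, 0 to 1, 0 to 3 and 0 to 1. Without the filter on low counts, 2 pathway genes were called higher, and 0 with all 6 libraries unfiltered, an alternative chosen after seeing the data, under which OGFR (1.69) and OPRL1 (-1.77) were called, as were 0.632% of genes higher and 0.568% lower. OPRL1 lost it in all 6 of those fits too, and without NC_2 or NC_3 from the 4. In edgeR, adjusted p of OGFRL1 was above 0.05 without NC_2 or NC_3 from the 4 libraries, with all 6 libraries (filtered or not), with the block and in 5 of the 6 fits that left 1 library out of 6. Deviations of same-numbered libraries correlated at -0.118, 0.006 and -0.026. With 3 libraries per group and SiCIRBP_2 apart, these values cannot decide whether same-numbered libraries were paired. With the block edgeR called 1 gene of 15217, and 0 without it. Where a group kept 1 library, that library was assumed to vary like the others. PENK and PDYN gave no value in any fit, and POMC only where low counts were kept. The causes were not tested. Depth leaves PENK, PDYN, PNOC and POMC without a comparison.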
